A study of Mus musculus with 56 samples.

Results

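The nuclear genes of respiratory complex I and its Nduf-named assembly factors were described in prefrontal cortex of young Scn2a heterozygous and wild-type mice. They were taken as every gene of the deposited table whose mouse symbol is Nduf followed by a, b, c, s, v or af and a number, with 1 symbol that ends in -ps left out (Ndufb1-ps). The rule found 46 of 18088 genes. Of these, 35 encode complex I subunits, 8 are the assembly factors Ndufaf1 to Ndufaf8, and 3 fall outside both classes: Ndufa4 and Ndufa4l2, which keep a complex I name although Ndufa4 is now assigned to cytochrome c oxidase, and Ndufb4c, a processed pseudogene of Ndufb4.

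Complex I (NADH:ubiquinone oxidoreductase) is the largest enzyme of the mitochondrial respiratory chain. Its matrix arm takes electrons from NADH and passes them along iron-sulfur clusters to ubiquinone, and its membrane arm pumps protons into the intermembrane space. The hydrophobic core of the membrane arm is encoded by mitochondrial DNA, the rest by nuclear genes, and a set of assembly factors builds the arms in modules without staying in the finished enzyme. Neurons draw most of their ATP from this chain, and loss of single subunits such as Ndufs4 causes brain disease in mouse and human.

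The series measured messenger RNA by sequencing in 56 prefrontal cortex libraries, made with a poly(A)-selecting stranded kit from C57BL/6J mice of both sexes at postnatal day 25. All mice had received vehicle, fluoxetine (a serotonin reuptake inhibitor) or lithium for 3 weeks, from postnatal day 3 to 24, through the milk of their mothers. Mice were heterozygous for Scn2a, a neuronal sodium channel gene (HT), or wild type (WT), and each genotype, drug and sex formed a group of 5 libraries. The exceptions, with 4 each, were the fluoxetine females of both genotypes and, in WT, the lithium females and vehicle males. The labels name no litter or mother, so mice of a group may share one, and p-values measure the spread between these samples only. The kind of Scn2a allele is not described in the labels.

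Read counts worked back from the normalized values, summed over the 18088 genes, were between 24253955 and 36385936 per library. Values are the authors' normalized counts: reads divided by 1 size factor per library, so they are not corrected for transcript length. Scn2a itself stood at 12310 ± 779.9 (SD, n = 27) in WT and 8554 ± 423.3 (n = 29) in HT libraries, with no overlap (9727 to 13380 against 7583 to 9619). All 10 markers of cortical excitatory neurons were above 0 in every library, summing to 59530 to 79100. Markers of the olfactory bulb and its neuroblasts (15 genes, summing to 11170 to 41760) and of the striatum (12 genes, 6615 to 28900) varied widely between libraries, and 17 libraries had a mean log2 deviation above 1 for one of these lists. Eomes in the first list and Isl1 in the second were at 0 in some libraries. In such bulk tissue, fewer cells of a type and less RNA per cell cannot be told apart.

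Short promoter stretches are printed first for the genes whose values the results turn on. Windows from 250 bases before to 50 after the annotated start were available for 39 of the 46 genes (RefSeq, GRCm38.p6), and the remaining 7, Ndufs1 and Ndufb9 among them, were not searched. Capitals mark the motif match within 30 bases read along the gene's strand, 5′ to 3′. Matches were searched on both strands, and those printed here do not overlap each other.
Ndufb4, NRF1 motif, chr16:37654371-37654400, minus strand: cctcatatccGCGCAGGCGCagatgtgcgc
Ndufb4, NRF1 motif, chr16:37654428-37654457, minus strand: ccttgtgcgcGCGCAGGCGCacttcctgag
Ndufb4, NRF1 motif, chr16:37654540-37654569, minus strand: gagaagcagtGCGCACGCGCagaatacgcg
Ndufa7, E-box, chr17:33824488-33824517, plus strand: gcggagaggagtCACGTGagcaggggatgc
Ndufaf3, SP1 motif, chr9:108567629-108567658, minus strand: cagagcgcgcaaGGGCGGggtggtgctcca
Ndufaf8, ETS motif, chr11:120098915-120098944, plus strand: cgcgttcgactCCGGAAGaggcagggccca

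The motif of NRF1, a transcription factor known for its part in nuclear respiratory genes, was searched as GCGCA, any 1 base and GCGC. It was found in 9 of 39 windows (23.1%), against 5.2% of the windows of all 27025 genes. Ndufb4 held 3 matches, the most of any of these genes. The ETS core CCGGAAG was in 6 windows (15.4%, against 9.9% of all), the SP1 box GGGCGG in 20 (51.3% against 38.2%), the E-box CACGTG in 2 (5.1% against 8.1%) and the TATA motif TATAAA in 4 (10.3% against 15.7%). The YY1 motif AAGATGGCG was in 6 windows (15.4%) against 1.6% of all. All of these lay just downstream of the start, with the first base 11 to 36 bases into the transcript, and they are shown because they share both position and strand.
Ndufaf8, YY1 motif, chr11:120098934-120098963, plus strand: ggcagggcccAAGATGGCGgcgccctcgag
Ndufc1, YY1 motif, chr3:51408914-51408943, minus strand: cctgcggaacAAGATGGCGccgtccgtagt
Ndufs7, YY1 motif, chr10:80249463-80249492, plus strand: ggccgaggccAAGATGGCGgcgctggcggg
Ndufa9, YY1 motif, chr6:126849096-126849125, minus strand: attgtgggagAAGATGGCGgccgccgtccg
Ndufs6, YY1 motif, chr13:73328433-73328462, minus strand: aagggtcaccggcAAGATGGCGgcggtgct
Ndufs4, YY1 motif, chr13:114388045-114388074, minus strand: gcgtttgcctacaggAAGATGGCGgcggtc
These matches describe letters in a window; no binding was measured.

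All 46 genes were detected and passed the filter on low values (a value of 10 or more in at least 4 libraries). Per kb of transcript, the subunits were the most abundant class and the assembly factors the least. The 35 subunits ranged from 329.8 to 4466 normalized counts per kb with a median of 1832, and the 8 assembly factors from 85.55 to 460.7 with a median of 333.7. In the authors' counts, Ndufb4, a subunit of the distal membrane arm, was the only subunit within the range of the assembly factors. Its mean value was 320.2, against 838.5 for its pseudogene Ndufb4c. They share sequence, so the level of Ndufb4 itself is uncertain. The next subunit up was Ndufs4, at 753.8 per kb.

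**Figure D1:**
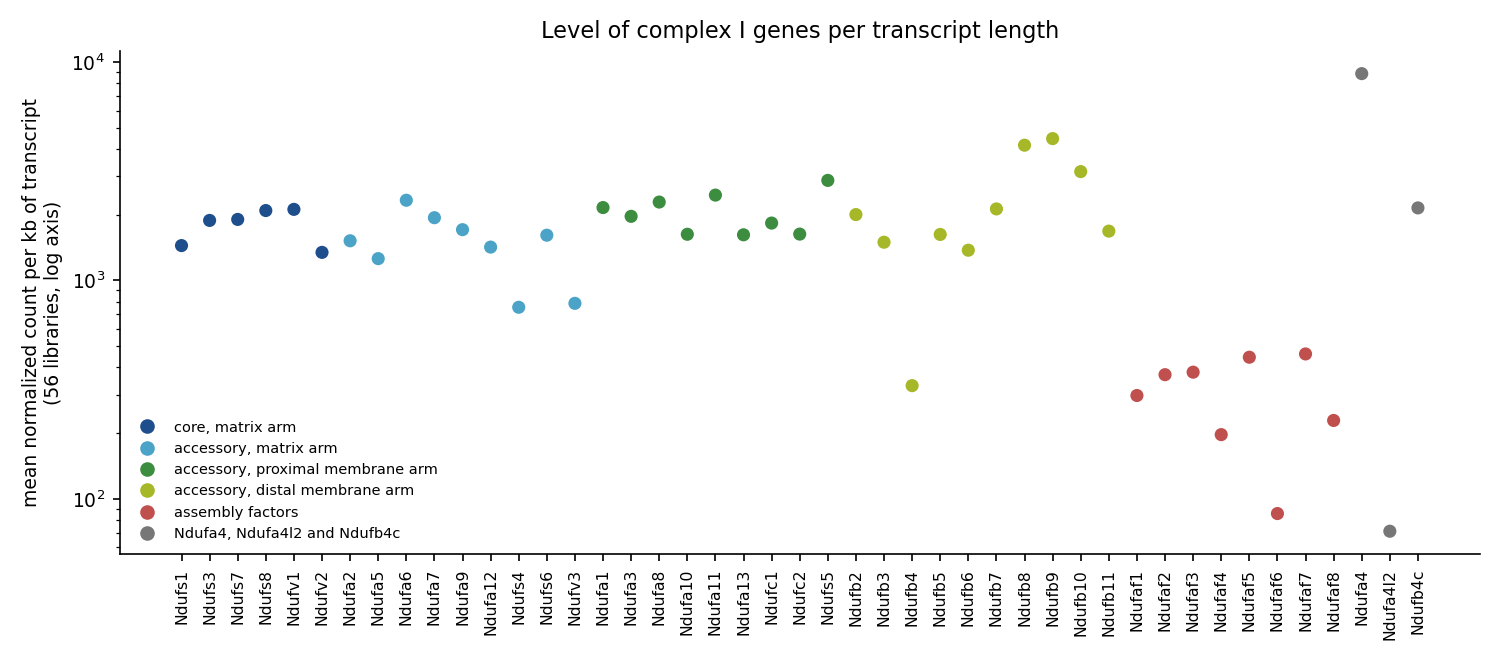
Mean normalized count per kb of transcript over the 56 libraries (log axis) for 45 of the 46 genes, coloured by role. Assembly factors lie between 85.55 and 460.7 per kb and the subunits drawn, except Ndufb4, at 753.8 per kb or more. The level of Ndufb4 depends on how reads were divided with its pseudogene Ndufb4c.

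The highest level per kb was that of Ndufa4, the cytochrome c oxidase-associated protein, at 8863 per kb (mean value 4006 ± 154.1, SD, n = 56). It was followed by Ndufb9 (4466) and Ndufb8 (4166), both of the distal membrane arm. The lowest were Ndufa4l2, a paralogue of Ndufa4 known as a target of hypoxia signalling, at 71.0 per kb, Ndufaf6 at 85.55 and Ndufaf4, which works with Ndufaf3 on the ubiquinone-binding module, at 196.7. Among roles the medians of the subunits were close: 1904 per kb for the 7 core subunits of the matrix arm, 1520 for the 9 accessory subunits of that arm, 1967 for the 9 of the proximal and 1844 for the 10 of the distal membrane arm. A level per kb depends on which transcript is taken, since Ndufb2 and Ndufc1 have annotated transcripts of very different length.

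Some of these genes share sequence or space with others. Every one of the 360 stretches of 31 bases in Ndufb4c also occurs in Ndufb4 (38.3% of its 941), so the authors' counting could move reads between them, and both levels are uncertain. Ndufb9 shares 25.5% of its stretches with Gm49356, an overlapping gene model. Ndufaf3 overlaps Impdh2 and Ndufs1 overlaps Eef1b2 on the opposite strand, and several other genes of the set overlap a neighbour in this way. These are overlaps of whole gene spans. The kit keeps strand, but whether the counting used it is not given in the sources used here. Without it, reads from any exon sequence that such a pair shares cannot be told apart.

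The subunit genes varied together between libraries of the same group. After group means were removed, the mean pairwise Pearson r was 0.483 among the 35 subunits and 0.087 among the 8 assembly factors, against 0.001 among all 17778 genes tested. Over the whole set, 90.5% of the 1035 pairs were positive (mean r 0.382). These are descriptions over 56 libraries in which all genes share the library's depth and composition. The nuclear complex I genes are short: 45 of 46 were shorter than the median tested gene, with a median transcript of 821 nucleotides against 2657. In all 610 protein-coding genes under 1000 nucleotides with a mean value of at least 250, the short complex I genes among them, the mean r was 0.206, and among 43 ribosomal protein genes, another class of short and abundant messages, it was 0.557. Ndufa4 (mean r with the others 0.549), Ndufb9 (0.531), Ndufb10 (0.527) and Ndufb8 (0.525) were the most typical, and Ndufaf4 (-0.073), Ndufa4l2 (0.003), Ndufaf1 (0.043) and Ndufs1 (0.064) the least. Counting reads alone gives a spread that lowers r. The SD of log2 values within groups was 0.052 for Ndufaf7, 0.064 for Ndufaf5 and 0.076 for Ndufaf1. Counting alone would give 0.053, 0.066 and 0.072. Ndufaf8 (0.211 against 0.1135) and Ndufaf4 (0.081 against 0.056) lay further above it, and Ndufb8 much further (0.122 against 0.028). The subunit Ndufs4 lay at it (0.042 against 0.042). How far this accounts for the lower r of the assembly factors was not tested.

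Their spread within a group was small. The median SD of the log2 values was 0.085, against 0.134 over all genes tested, and counting error alone would give 0.042. Short members varied more than long ones: the median SD was 0.12 for the 28 under 1000 nucleotides and 0.068 for the 18 others.

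Lithium was compared with vehicle separately in WT (9 against 9 libraries) and HT mice (10 against 10), with limma's moderated test on log2(value + 1) and Benjamini-Hochberg adjustment over 17778 genes; a gene was called where the adjusted p was below 0.05. In WT mice lithium lowered Ndufb4 and Ndufa7 and raised Ndufs1. In HT mice it lowered Ndufa7, Ndufaf3, Ndufaf8, Ndufb4 and Ndufs4 and raised none. That is 3 of 46 genes in WT (6.52%), where 5.71% of all genes tested were called, and 5 of 46 in HT (10.9%), where 8.77% were called. In WT the 2 lowered genes stand beside 1.88% of all genes called lower, and the raised gene beside 3.84% called higher; in HT 4.13% of all genes were called lower and 4.64% higher. The share called in either direction is near that of all genes in both genotypes.

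**Figure D2:**
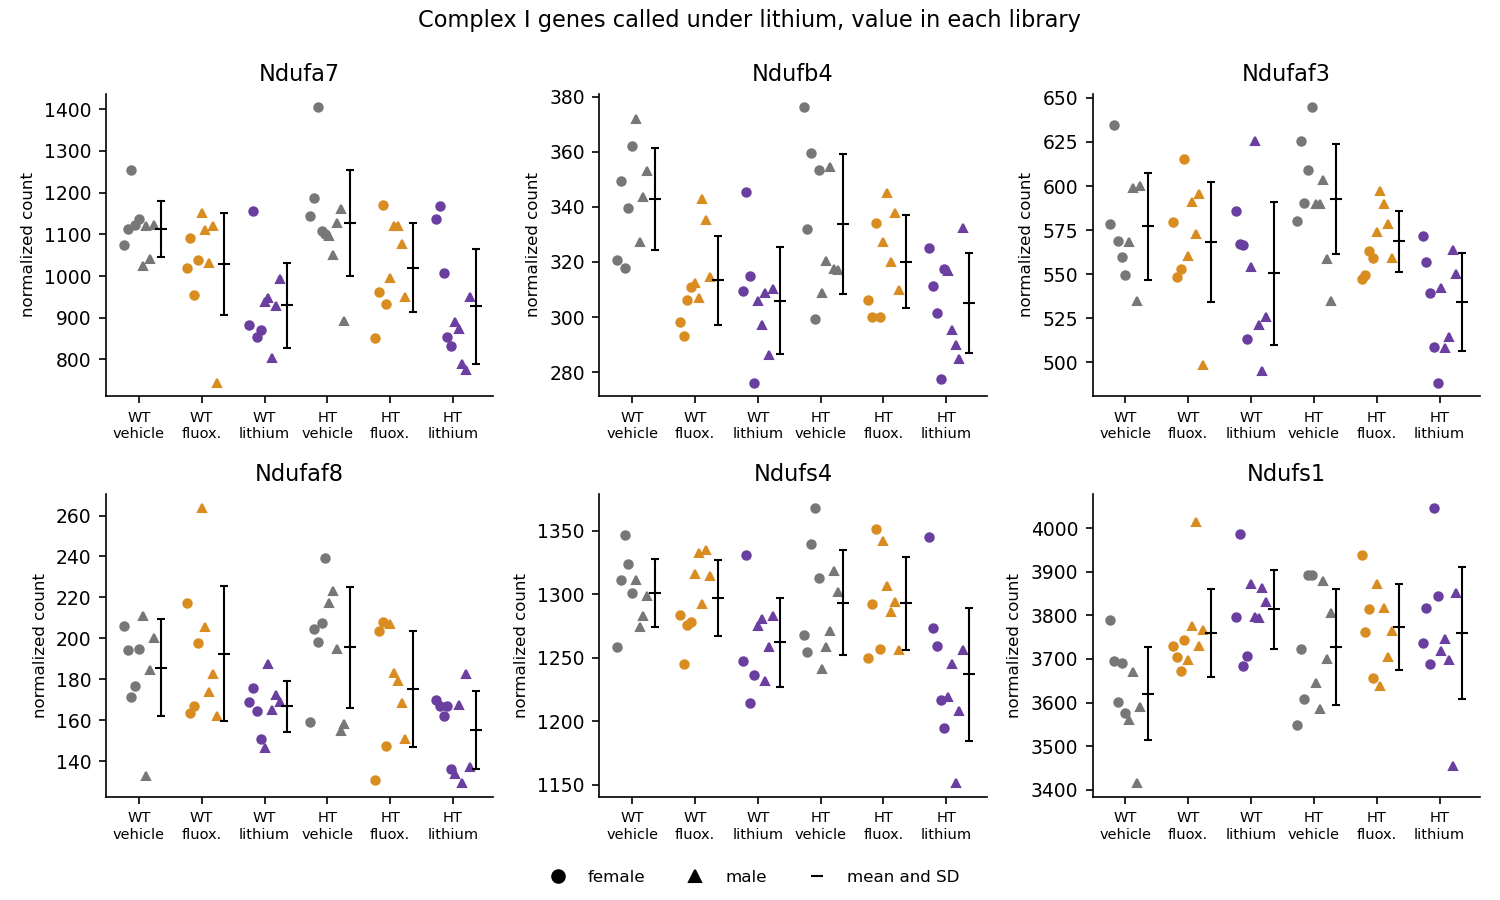
Normalized count in each library for the complex I genes called under lithium, by genotype and drug, with females and males as separate marks and the mean of each arm as a horizontal line. The lithium means of Ndufa7 (930.2 in WT and 927.7 in HT) lie below its vehicle means (1112 and 1127), and the ranges overlap.

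Ndufa7, an accessory subunit of the matrix arm near the NADH-binding end (chr17:33824572-33838317, GRCm38), gave the lowest p in HT and the second lowest in WT. In WT vehicle libraries it stood at 1074, 1113, 1255, 1122 and 1136 in females and 1023, 1121, 1040.2 and 1123 in males. Under lithium it stood at 883, 1155, 854 and 869.5 in WT females and 939, 948, 803, 927 and 993 in WT males. All lithium libraries except 1 female lay below the lowest vehicle library.

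In HT vehicle libraries Ndufa7 stood at 1144, 1188, 1405, 1108 and 1099.7 in females and 1096, 1049.6, 1126.5, 1160.5 and 893 in males. Under lithium it stood at 1137, 1169, 1006, 853 and 833 in HT females and 890.2, 873, 789, 775 and 951 in HT males. Of the 10 lithium libraries, 6 lay below every vehicle library and the rest within the vehicle range. The means were 1112 ± 67.0 and 930.2 ± 101.7 in WT (vehicle and lithium, SD, n = 9 each) and 1127 ± 127 and 927.7 ± 137.5 in HT (n = 10 each). The log2 change was -0.26 (SE 0.0726, limma adjusted p = 0.028) in WT and -0.29 (SE 0.0684, adjusted p = 0.0058) in HT; it fell by 16.3% in WT and by 18% in HT. It was lower than the vehicle mean of its sex in 8 of 9 WT and 10 of 10 HT lithium libraries.

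Ndufb4, the distal membrane-arm subunit that shares sequence with Ndufb4c (chr16:37647170-37654453), was called in both genotypes. In WT vehicle libraries it stood at 321, 349, 318, 339.5 and 362 in females and 372, 327, 344 and 353 in males. Under lithium it stood at 309, 345.5, 315 and 276 in WT females and 306, 297, 309, 286 and 310.2 in WT males. All WT lithium libraries except 1 female lay below every vehicle library.

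In HT vehicle libraries Ndufb4 stood at 376, 332, 359, 299.5 and 353 in females and 309, 320.5, 354, 317.5 and 317 in males. Under lithium it stood at 325, 311, 301.5, 277.5 and 317 in HT females and 317, 295, 289.9, 285 and 332 in HT males. Here the groups overlapped. The log2 change was -0.16 (SE 0.0422, limma adjusted p = 0.015, 8 of 9 libraries) in WT and -0.13 (SE 0.0398, adjusted p = 0.035, 9 of 10) in HT; it fell by 10.8% in WT and dropped by 8.5% in HT.

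When the reads of Ndufb4 and its pseudogene Ndufb4c were added together, the sum fell short of a call. It stood at 1199 ± 66.5 in vehicle and 1108 ± 95.7 in lithium libraries of WT mice (log2 change -0.11, limma adjusted p = 0.19), and at 1198 ± 68.9 and 1099 ± 76.9 in HT (-0.13, adjusted p = 0.090). Ndufb4c alone had log2 changes of -0.088 (adjusted p = 0.45) and -0.12 (adjusted p = 0.21). The call for Ndufb4 therefore holds only for the authors' split of reads between the gene and the pseudogene.

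Ndufaf3, which acts with Ndufaf4 early in the assembly of the ubiquinone-binding module (chr9:108565537-108567434), was called in HT mice. In HT vehicle libraries it stood at 580.2, 626, 590.5, 609 and 645 in females and 589.7, 589.9, 604, 559 and 535 in males. Under lithium it stood at 572, 557, 539, 508.5 and 488.5 in females and 542, 508, 515, 563.5 and 550.1 in males. Every lithium female was below every vehicle female, and the males overlapped. The log2 change was -0.15 (SE 0.0368, limma adjusted p = 0.0072, 10 of 10 libraries); Ndufaf3 fell by 9.8%. In WT mice it was -0.067 (adjusted p = 0.32).

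Ndufaf8, which stabilizes the assembly factor Ndufaf5 (chr11:120098928-120100705), showed the greatest change of the called genes. In HT libraries it ranged from 154.6 through a median of 201.4 to 239.1 under vehicle and from 129.3 through 164.4 to 182.8 under lithium. The ranges overlapped, with the higher vehicle libraries above all lithium ones. The log2 change was -0.33 (SE 0.092, limma adjusted p = 0.018, 10 of 10 libraries); Ndufaf8 fell by 20.3%. In WT mice it was -0.14 (adjusted p = 0.41).

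Ndufs4, the accessory matrix-arm subunit whose loss models Leigh syndrome (chr13:114287795-114388258), fell by 4.4% in HT mice. It ranged from 1241 through 1286 to 1368 under vehicle and from 1151 through 1232 to 1346 under lithium (lowest, median and highest of 10 libraries each). The groups overlapped widely, and the call was near the threshold (log2 change -0.065, SE 0.0212, limma adjusted p = 0.045, 9 of 10 libraries). In WT the log2 change was -0.043 (adjusted p = 0.26). Ndufb9 lay just outside the threshold in HT (-0.11, adjusted p = 0.051).

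Ndufs1, the largest core subunit and carrier of several iron-sulfur clusters (chr1:63143596-63176833), was the single gene called as higher in the limma model without covariates. In WT it ranged from 3416 through 3601 to 3789 under vehicle and from 3685 through 3796 to 3987 under lithium (9 libraries each). All lithium libraries were above the vehicle median. The log2 change was 0.077 (SE 0.0228, limma adjusted p = 0.036, 9 of 9 libraries), a rise of 5.5%. The call was lost with TMM scaling (0.067, adjusted p = 0.070), edgeR and voom (adjusted p = 0.071 each), marker scores as covariates (adjusted p = 0.060) and each library's slope on transcript length as a covariate (adjusted p = 0.051). In HT mice it was 0.012 (adjusted p = 0.79). Ndufaf4 had positive values in both genotypes without a call (0.11, adjusted p = 0.092 in WT, and 0.097, adjusted p = 0.088 in HT). With the marker scores as covariates, Ndufaf4 was called as higher in WT (0.122, limma adjusted p = 0.046) and not in HT.

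By role, no test of a difference was run, and the values overlapped between roles. In WT all 7 core matrix-arm subunits had positive log2 changes (median 0.020), 1 of them called. Values were negative for 7 of 9 accessory matrix-arm subunits (median -0.061, 1 called), 7 of 9 proximal (median -0.058, none called) and 8 of 10 distal membrane-arm subunits (median -0.036, 1 called). The assembly factors divided 4 to 4 (median -0.022, none called).

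In HT mice nearly all values were negative in the model without a length slope. They were negative for 6 of 7 core subunits (median -0.034, none called), 8 of 9 accessory matrix-arm subunits (median -0.083, 2 called), 8 of 9 proximal (median -0.058, none called) and 10 of 10 distal membrane-arm subunits (median -0.080, 1 called). Among assembly factors 7 of 8 were negative (median -0.067, 2 called). Over all 46 genes, 28 were negative in WT (median -0.032) and 42 in HT (median -0.067), while the median of all genes tested lay between -0.01 and 0.003 in every comparison. An unadjusted p under 0.05 was reached by 5 of 46 in WT (10.9%, against 21.4% of all genes) and 21 of 46 in HT (45.7%, against 23.3%). With the slope of each library's values on transcript length in the model, 29 of 46 were positive in WT (median 0.006) and 20 of 46 in HT (median -0.010), so the median changed sign in WT and came near 0 in HT.

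**Figure D3:**
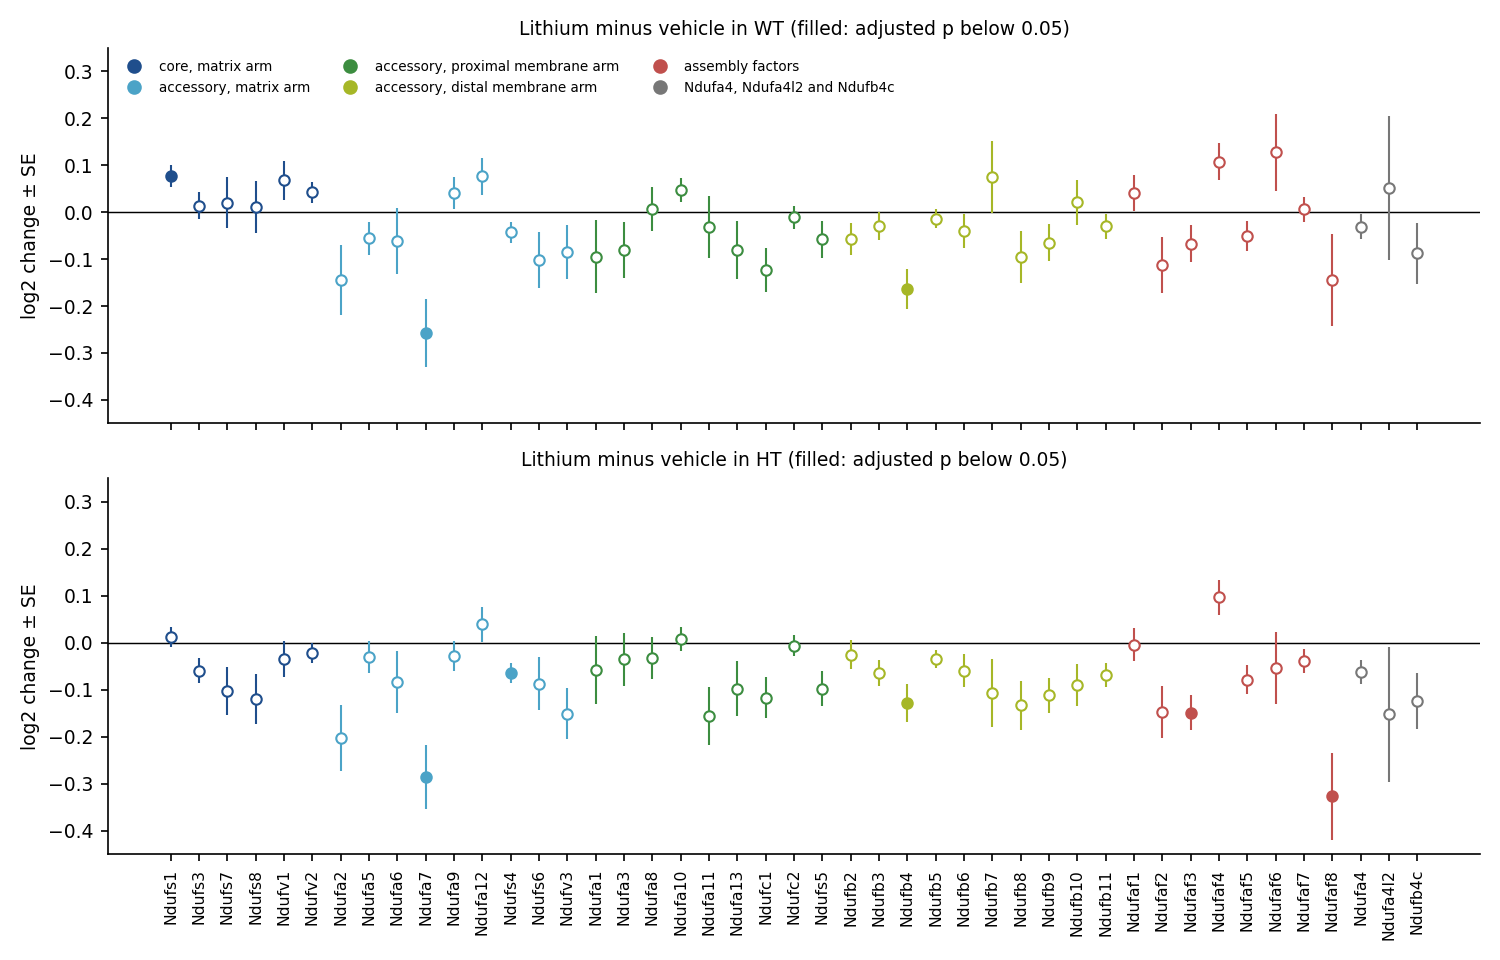
Log2 change (lithium minus vehicle) with its standard error for 45 of the 46 genes, in WT (upper) and HT mice (lower), coloured by role, with filled points for an adjusted p below 0.05. In this model without the length slope, the core subunits drawn lie above 0 in WT, and nearly all genes lie below 0 in HT.

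The lithium comparisons of WT and HT mice share no library. Across the 46 genes their log2 changes had a Pearson r of 0.70 and a Spearman rho of 0.633; 28 were negative in both and 4 positive in both. The genes share libraries within each comparison, so this is a description without a test.

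The values under lithium followed transcript length. Of the 28 genes under 1000 nucleotides, 22 were negative in WT (median -0.058) and 28 in HT (median -0.10). Of the 18 longer genes, 6 were negative in WT (median 0.027) and 14 in HT (median -0.034). Spearman's rho between length and log2 change was 0.551 in WT and 0.428 in HT over the 46 genes. The 43 ribosomal protein genes, also short, were negative in 41 in WT (median -0.133, 17 called lower) and in 43 in HT (median -0.153, 25 called lower). The slope of each library's values on transcript length itself differed with the drug. Its mean was -0.004 under vehicle and 0.016 under lithium in WT, and -0.013 and 0.012 in HT. The slope is computed from the same values, so a model with it cannot separate an effect of the drug from a technical one. When this slope was added to the model, the calls changed as well as the counts of signs. In WT Ndufb4 was still called (-0.13, limma adjusted p = 0.042), Ndufa7 (-0.15, adjusted p = 0.092) and Ndufs1 (0.072, adjusted p = 0.051) were not, and Ndufa12 (0.14, adjusted p = 0.0042) and Ndufb7 (0.21, adjusted p = 0.0073) were called as higher. In HT Ndufa12 alone was called, as higher (0.12, adjusted p = 0.015), and Ndufa7 (-0.15, adjusted p = 0.15), Ndufaf3 (-0.097, adjusted p = 0.13), Ndufaf8 (-0.20, adjusted p = 0.25), Ndufb4 (-0.084, adjusted p = 0.29) and Ndufs4 (-0.035, adjusted p = 0.40) were not.

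**Figure D4:**
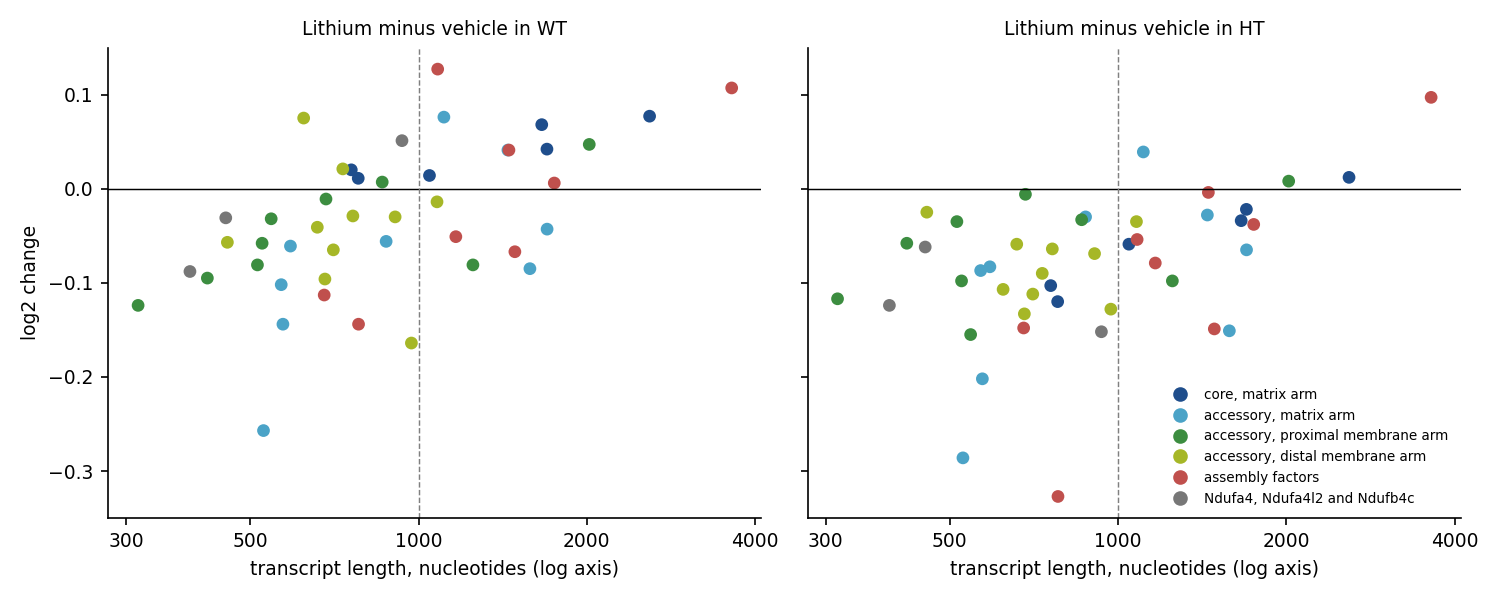
Log2 change under lithium against transcript length (log axis, nucleotides) for 45 of the 46 genes in WT (left) and HT mice (right), coloured by role. Short genes lie lower: over all 46 genes the median is -0.058 in WT and -0.10 in HT under 1000 nucleotides, against 0.027 and -0.034 above.

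Markers of other cells and regions moved beside these values. Under lithium the olfactory markers summed to 12220 to 21540 in WT against 12790 to 41760 under vehicle, with 15 of 15 genes negative and none called; in HT they summed to 12250 to 40100 against 13120 to 28590, with 4 of 15 negative. Striatal markers summed to 7028 to 21200 against 6648 to 13010 in WT (12 of 12 positive) and 7475 to 19390 against 6787 to 28900 in HT (4 of 12 positive). Endothelial and pericyte markers summed to 12320 to 15530 against 13220 to 16560 in WT, with 8 of 11 negative and 2 called lower. In HT they summed to 10570 to 13800 against 11860 to 16180, with 9 of 11 negative, 3 called lower and 1 called higher. Of the excitatory neuron markers, 7 of 10 were positive in WT (1 called higher) and 6 of 10 negative in HT (1 called lower). Astrocyte markers summed to 151400 to 174700 against 153600 to 181800 in WT and 145100 to 159800 against 134200 to 186300 in HT. Interneuron markers summed to 24520 to 28140 against 23290 to 32210 in WT and 22390 to 31380 against 23060 to 27310 in HT. For oligodendrocyte markers the sums were 107000 to 198500 against 106400 to 225200 in WT and 136700 to 198900 against 114300 to 258400 in HT. All 10 microglial markers were negative in both genotypes, with 1 called lower in each, and summed to 9132 to 12740 against 10870 to 12970 in WT and 10170 to 12330 against 10590 to 13650 in HT. In the 39 libraries without a high olfactory or striatal score, the WT changes were as large but no gene was called (Ndufb4 -0.16, limma adjusted p = 0.072; Ndufa7 -0.26, adjusted p = 0.091; Ndufs1 0.072, adjusted p = 0.16). In HT, Ndufaf3 (-0.16, adjusted p = 0.030) and Ndufaf8 (-0.40, adjusted p = 0.041) were called and Ndufa7 was not (-0.27, adjusted p = 0.058). The part of vascular, microglial, astrocyte, interneuron and oligodendrocyte RNA was not tested.

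Other genes of the pathway were read from lists by role. Of 13 further assembly genes, 12 were in the table. Under lithium 1 was called higher and 1 lower in WT, and 1 lower in HT. Over all genes tested 5.71% were called in WT and 8.77% in HT. Those shares stand beside every list of genes counted under lithium here. Dmac1, a factor for assembly of the distal membrane arm, was the lowered gene in both genotypes. In HT it fell from 440.1 to 516.8 under vehicle to 370.3 to 427.0 under lithium in females, and from 448.0 to 498.7 to 378.4 to 411.7 in males, with no overlap within either sex. The log2 change was -0.28 (SE 0.0416, limma adjusted p = 5e-05, 10 of 10 libraries) in HT and -0.21 (SE 0.0442, adjusted p = 0.0041, 8 of 9) in WT. Ecsit, of the membrane-arm intermediate assembly complex, was higher in WT (0.10, adjusted p = 0.023, 9 of 9); in HT its change was 0.04 (adjusted p = 0.45).

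The 7 complex I subunits encoded in mitochondrial DNA, the core of the membrane arm, were all negative under lithium in both genotypes. In WT mt-Nd3 was called (-0.66, limma adjusted p = 0.047, 9 of 9 libraries; in HT -0.28, adjusted p = 0.40), and in HT mt-Nd6 (-0.50, adjusted p = 0.013, 8 of 10; in WT -0.23, adjusted p = 0.35). Within a group mt-Nd3 varied up to several-fold, from 871.9 to 1922 in WT lithium females for example. These transcripts carry short or no poly(A) tails, so their recovery in a poly(A)-selected library is uneven. The acyl carrier Ndufab1, a subunit whose symbol lies outside the rule, showed -0.04 (adjusted p = 0.73) in WT and 0.02 (adjusted p = 0.88) in HT. Of 13 regulators of respiratory genes, Pprc1, a coactivator, was higher (0.16, adjusted p = 0.038) and Gabpb2, a subunit of an ETS-family factor, lower (-0.17, adjusted p = 0.046) in WT, and none was called in HT.

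Fluoxetine changed no complex I gene past the threshold in either genotype. In WT 0 of 46 were called where 0.146% of all genes were; 5 had an unadjusted p under 0.05 (10.9%, the same share as over all genes). In HT 0 of 46 were called where 0.045% of all genes were, and 3 had an unadjusted p under 0.05 (6.5%, against 8.6% of all). Values were positive for 29 of 46 in WT (median 0.025) and negative for 36 of 46 in HT (median -0.040). With the length slope in the model these directions nearly vanished: 24 of 46 were positive in WT (median 0.006) and 24 of 46 in HT (median 0.001). Ndufa12 was then called as higher in WT.

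The smallest p in WT was that of Ndufa12, an accessory matrix-arm subunit, which ranged from 1417 through 1482 to 1612 under vehicle and 1497 through 1662 to 1765 under fluoxetine. The groups overlapped, with 8 of 9 fluoxetine libraries high for their sex (log2 change 0.14, SE 0.0399, limma adjusted p = 0.12). Ndufb4 was lower than the vehicle mean of its sex in 9 of 9 libraries (-0.14, adjusted p = 0.16), and Ndufv2, a core iron-sulfur subunit, showed 0.055 (adjusted p = 0.31). The vehicle libraries are shared with the lithium comparison. In HT the smallest p-values were those of Ndufa2 (-0.17, adjusted p = 0.56), an accessory matrix-arm subunit, Ndufa7 (-0.15, adjusted p = 0.57) and Ndufs8, a core iron-sulfur subunit (-0.11, adjusted p = 0.57).

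The HT fluoxetine values differed by sex without reaching a call. In females 42 of 46 were negative (median -0.086) and in males 35 of 46 positive (median 0.019). The difference between the sexes was positive for 42 of 46 (median 0.111); 0 were called, as for all genes (0%), and 8 had an unadjusted p under 0.05 (17.4%, against 6.0% of all). With the length slope in the model the difference was positive for 28 of 46, with a median of 0.014. Ndufb7, of the distal membrane arm, showed -0.30 in females and 0.10 in males (difference 0.39, limma adjusted p = 0.79). Females were 4 libraries with a wide spread: the mean deviation of the 35 subunits was -0.163, -0.036, 0.135 and -0.086. The library at 0.135 had the lowest slope on transcript length of the 4 (-0.0423, against 0.0354, 0.019 and 0.0242). The HT vehicle libraries, from which these changes were taken, differed by sex too. There the mean deviation of the subunits was 0.071 in females and -0.007 in males, against -0.038 and 0.011 under fluoxetine. The mean slope on length was -0.023 in HT vehicle females and -0.003 in HT vehicle males. The sex difference of the change thus draws on the vehicle libraries as well. In the other drug-by-sex comparisons (fluoxetine in WT, lithium in WT and in HT) 0 of 46 were called, against 0% of all genes, and the smallest adjusted p among the complex I genes was 0.75 (Ndufb5, lithium in WT).

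Lithium and fluoxetine were also compared with each other. No complex I gene was called in WT (1.05% of all genes were) or in HT (1% were), and 9 and 4 of 46 had an unadjusted p under 0.05. Values were lower under lithium for 35 of 46 in WT and 41 of 46 in HT, with a median of -0.032 in each. With the length slope in the model 30 of 46 were higher under lithium in WT (median 0.015, with Ndufb7 and Ndufs7 called) and 20 of 46 in HT (median -0.006). Nearest to the threshold in WT were Ndufv3, a small accessory subunit of the NADH-binding module (-0.20, limma adjusted p = 0.073, 9 of 9 libraries), Ndufaf2, the assembly-stage paralogue of Ndufa12 (-0.19, adjusted p = 0.093), and Ndufc1 (-0.13, adjusted p = 0.15). DESeq2 called Ndufv3. In HT they were Ndufs4 (-0.064, adjusted p = 0.14), Ndufaf5, which modifies Ndufs7 during assembly (-0.080, adjusted p = 0.21), and Ndufaf3 (-0.087, adjusted p = 0.26).

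The Scn2a genotype changed no complex I gene past the threshold. Under vehicle 0 of 46 were called (0.00562% of all genes), under fluoxetine 0 (0.0112%), under lithium 0 (0.0337%) and averaged over treatments 0 (0.152%). An unadjusted p under 0.05 was reached by 2, 4, 1 and 1 of 46. edgeR's quasi-likelihood test, DESeq2 and limma with voom also called 0 in each of these and in the fluoxetine comparisons. The values were small, with medians of 0.018, -0.033, -0.023 and -0.012.

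The direction of these small values varied with treatment and with the model. HT values were above WT for 35 of 46 genes under vehicle, and below for 37 under fluoxetine and 39 under lithium. With the length slope in the model, HT values were above WT for 19 of 46 under vehicle (median -0.007), 23 of 46 under fluoxetine and 6 of 46 under lithium (median -0.031), so the difference in direction between vehicle and fluoxetine was no longer seen. Without that slope, all 7 core subunits were positive under vehicle (median 0.044) and negative under lithium (median -0.025), and all 8 assembly factors were negative under lithium (median -0.029). The smallest p-values were those of Ndufv2 (0.049, limma adjusted p = 0.42), Ndufv1, the NADH-binding core subunit (0.084, adjusted p = 0.47) and Ndufs1 (0.044, adjusted p = 0.51) under vehicle. Under fluoxetine they were those of Ndufc1 (-0.11), Ndufa3, of the proximal membrane arm (-0.13), and Ndufv3 (-0.12), each with an adjusted p of 1.0, and under lithium those of Ndufs3 (-0.055, adjusted p = 0.48), Ndufa9 (-0.058, adjusted p = 0.54) and Ndufs8 (-0.091, adjusted p = 0.55). Ndufs3 is a core subunit and Ndufa9 an accessory one, both of the matrix arm.

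**Figure D5:**
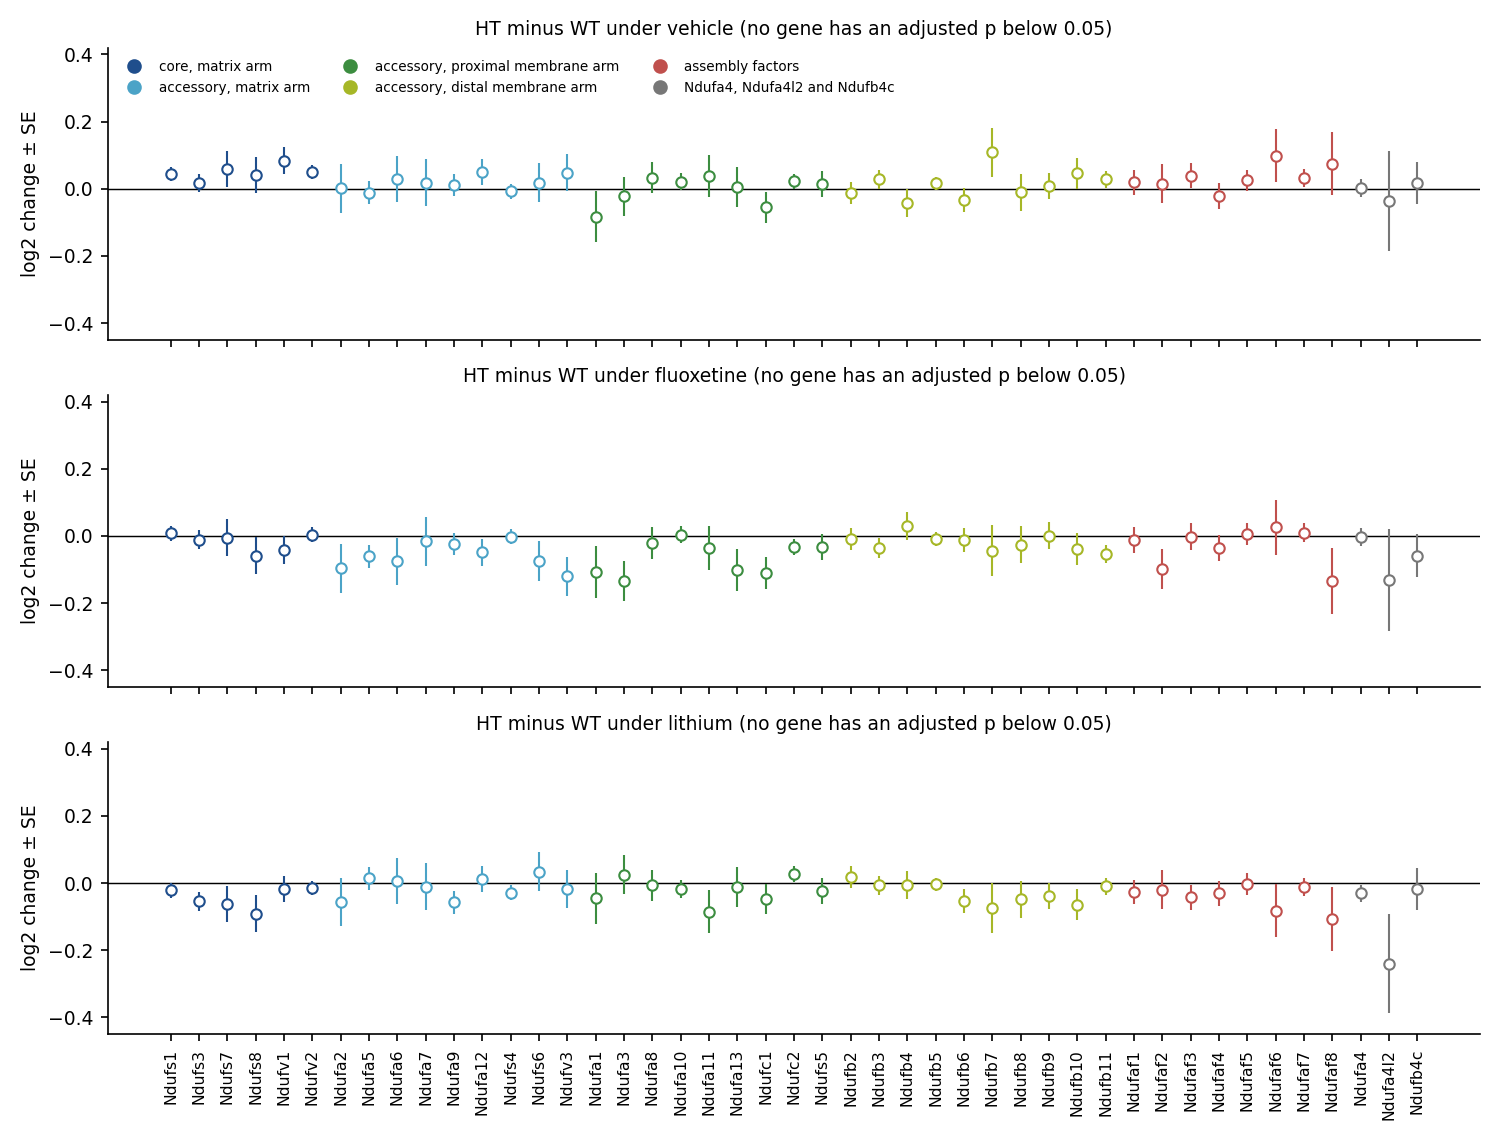
Log2 change (HT minus WT) with its standard error for 45 of the 46 genes under vehicle, fluoxetine and lithium, coloured by role. Values lie mostly above 0 under vehicle (35 of all 46 genes) and below 0 under fluoxetine (37) and lithium (39), in the model without the length slope, all with an adjusted p above 0.05.

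Averaged over treatments, the lowest p was that of Ndufc1, a small subunit of the proximal membrane arm (chr3:51404677-51408988). It ranged from 521 through 593 to 661 in the 27 WT libraries and from 488 through 568 to 669.9 in the 29 HT libraries. The ranges nearly coincided, with 23 of 29 HT libraries below the WT mean of their drug and sex. The means were 591.5 ± 40.4 and 563.9 ± 45.7 (SD), a log2 change of -0.072 (SE 0.0265, limma adjusted p = 0.38).

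Ndufa1, also of the proximal membrane arm and encoded on the X chromosome (chrX:37187588-37191163), came next. It ranged from 782 through 932 to 1101 in WT and from 647 through 906 to 1049 in HT libraries, with wide overlap. The means were 927.3 ± 86.3 and 883.2 ± 112.4, a log2 change of -0.078 (SE 0.0438, limma adjusted p = 0.68, 18 of 29 libraries). Ndufa4l2 followed with -0.14 (adjusted p = 0.73).

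The drug effects were compared between genotypes by interaction. For fluoxetine 0 of 46 were called, against 0% of all genes, and 3 had an unadjusted p under 0.05; the interaction was negative for 42 of 46 (median -0.052), but with the length slope in the model it was positive for 23 of 46. The smallest p-values were those of Ndufb11, of the distal membrane arm (-0.084, limma adjusted p = 0.88), Ndufv1 (-0.13, adjusted p = 0.88) and Ndufv3 (-0.17, adjusted p = 0.90). For lithium 0 were called, against 0%, and 2 had an unadjusted p under 0.05; it was negative for 38 of 46 (median -0.039), and positive for 11 of 46 with the length slope (median -0.021). Ndufv2 (-0.064, adjusted p = 0.45), Ndufs1 (-0.065, adjusted p = 0.45) and Ndufs3 (-0.073, adjusted p = 0.48) came first, all core matrix-arm subunits. So the calls of Ndufs1 in WT only, and of Ndufaf3, Ndufaf8 and Ndufs4 in HT only, are not shown to be differences between the genotypes. Both interactions contain the same vehicle libraries.

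Between the sexes 0 of 46 were called, where 0.197% of all genes were, and 2 had an unadjusted p under 0.05. Values were lower in males for 39 of 46 (median -0.018); with the length slope 18 of 46 were higher (median -0.007). The smallest p-values were those of Ndufa11, of the proximal membrane arm (-0.077, limma adjusted p = 0.79), Ndufs8 (-0.065, adjusted p = 0.79) and Ndufb10, of the distal membrane arm (-0.053, adjusted p = 0.81).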

How the data were processed

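RNA was sequenced from prefrontal cortex of 56 mice. The deposited table holds, for 18088 genes, values the authors made by dividing estimated read counts by a size factor per library, a signal normalized for depth and not for length. Per the submitters' processing notes, Salmon 0.11.2, R 3.6.0 and DESeq2 1.19.11 were used with GRCm38. Low values were whole multiples of 1 step in 53 libraries (100% of values within 0.01 reads), and the step was not testable in 3. Size factors were 0.818 to 1.227. Gene symbols matched 18077 identifiers, and gene coordinates come from GENCODE vM21.

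Values were tested as log2(value + 1) with limma 3.58.1 in R 4.3.3 (trended, robust), a mean for each of the 12 groups of genotype, drug and sex, and contrasts averaged over sex. Genes with a value of at least 10 in 4 libraries entered (17778), and p-values were Benjamini-Hochberg adjusted over them; 310 genes were not tested. On counts simulated from these libraries the tests recovered most of the larger planted changes. Each gene was simulated separately, so apart from depth these counts lacked the variation between libraries that the real genes share. Recovery of the smaller planted changes was not made a condition, and most changes called among the complex I genes were smaller still. The reads recovered from the steps were tested with edgeR 4.0.16, DESeq2 1.42.0 and voom as alternatives. Other alternatives were TMM scaling, pseudocounts, no filter, a replicate block, only the compared groups, marker scores, the slope on length (with GC added later), Ndufb4 summed with Ndufb4c (added later) and each library left out.

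Genes named are those called, else the 3 with the smallest p; values by library are given for the 2 called genes with the smallest p. Members and lists were chosen with earlier results of these data known, so counts over them are descriptions. Libraries with the same replicate number in their titles showed no general tendency to vary together. 1 gene of the set is counted but its own values are not reported here.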

Additional observations from a re-analysis of the deposited data

Results flagged for a closer look

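For 8 genes, the 6 called under lithium and the 2 with the smallest p by genotype (Ndufc1 and Ndufa1), each of the 12 groups of 4 or 5 was searched for a library far from the rest of its group, judged by the gap to its nearest neighbour as a share of the group's range. 7 of 96 such tests stood out, where chance gives about 1 in 20.

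Ndufb4 stood at 354.4 in HT vehicle male 3, against 308.6 to 320.5 in the other males of that group. Ndufa7 stood at 1405 in HT vehicle female 3, against 1099.7 to 1188 in the others, and at 1155 in WT lithium female 2, against 853.7 to 882.9. The last is the WT lithium library that lay within the vehicle range. Ndufaf8, the gene with the greatest fall among those called, stood at 136 in HT lithium female 5, against 162 to 169.8.

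Ndufc1 stood at 500.3 in HT fluoxetine male 5, against 577.3 to 596.4 in the others, and at 555.7 in WT vehicle male 4, against 638.8 to 653.7. Ndufs1 stood at 4014 in WT fluoxetine male 3, against 3698 to 3776. A cause for any of these values was not tested.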

How the results depend on the processing

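Counts of complex I genes called moved by more than 1.5 times in these settings, and the cause was not tested. Under lithium in WT (3 called) the count was 0 without the 17 libraries rich in olfactory or striatal markers and 1 with length and GC slopes as covariates. Under lithium in HT (5 called) it was 2 without those libraries, 1 with the length slope, 1 with both slopes (Ndufa12, called as higher, in each) and 3 when only the compared groups entered the fit. Fluoxetine in WT (0 called) gave 1 with the length slope and 1 with both slopes, and lithium against fluoxetine in WT (0 called) gave 1 with DESeq2 and 2 with the length slope. Leaving out single libraries gave 1 to 3 called in WT and 3 to 9 in HT, and 0 in the other comparisons. The WT count was 1 without lithium female 1, lithium female 4, vehicle female 3 or vehicle male 4. The HT count was 3 without lithium female 3, lithium female 4, lithium male 3, vehicle female 3, vehicle female 5 or vehicle male 3. It was 9 without lithium female 1 or vehicle male 5, and 8 without lithium female 2, HT fluoxetine female 3 or WT fluoxetine male 5. Ndufa7, Ndufaf3 and Ndufaf8 in HT kept their call in all 56 such fits, and their highest adjusted p was 0.019, 0.023 and 0.048. Calls were lost in 13 fits for Ndufs4 and 9 for Ndufb4 in HT, and in 10 for Ndufs1, 6 for Ndufa7 and 1 for Ndufb4 in WT.

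With the replicate number as a block the counts were 3 in WT and 5 in HT, with Ndufb9 called in place of Ndufs4. The replicate numbers of the sample titles showed no general pairing. Over 292 same-numbered pairs the median correlation of deviations was -0.002, 24 were over 0.1 with a highest of 0.429, and 11 of 56 libraries correlated best with their own number. In WT fluoxetine and WT lithium females some library names carry another number than the title, and those numbers were not tested. TMM scaling, edgeR and voom each gave 2 and 6, DESeq2 3 and 6. Ndufs1 was not among the WT calls with TMM, edgeR or voom. No gene named with a call changed direction in any setting, but medians over the 46 genes changed sign with the length slope: from -0.032 to 0.006 for lithium in WT, from -0.040 to 0.001 for fluoxetine in HT, from 0.018 to -0.007 for genotype under vehicle, and from -0.032 to 0.015 for lithium against fluoxetine in WT. The sex differences of the lithium effect changed from 0.020 to -0.017 in WT and from 0.010 to -0.017 in HT. Adding GC left the same medians on the side the length slope had put them (0.016, 0.002, -0.007, 0.017, -0.013 and -0.027). Depth sets a floor on precision: counting error gave a median SD of 0.042 (log2) of the 0.085 seen within groups, so changes of a few percent were near the limit of these tests.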
